A study of Rattus norvegicus with 30 samples.

Results

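The change from 24 h to 48 h under 10 mM sodium valproate was examined in primary rat hepatocytes, as the 5 arrays labelled 10 mM at 48 h against the 5 labelled 10 mM at 24 h. These were 10 of the 30 expression arrays in the series, and they were chosen by their labels alone. The cells were cryopreserved hepatocytes of male Sprague Dawley rats (XenoTech), thawed onto collagen-coated plates, overlaid with Matrigel and dosed on day 3 of culture with valproate dissolved in water. The other 20 arrays, 5 per group, were the water vehicle and 0.5 mM valproate at the same 2 times, and they entered the shared estimate of the spread and the comparisons with the change over time without the high dose. The labels describe the 5 replicates of a group as separate cultures, each from 1 well. The number of donor animals and the assignment of wells to plates were not given in the labels, and the p-values therefore measure the spread between these cultures. The series is 1 of a set on 10 compounds, of which only valproate was analysed here.

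Valproate, an antiepileptic drug, is a short fatty acid with a branched chain. It inhibits histone deacetylases, and in liver it is activated to coenzyme A and carnitine esters, competes with the oxidation of other fatty acids and can cause fat accumulation. PPARalpha is the nuclear receptor that fatty acids activate in hepatocytes, where its targets encode peroxisomal and mitochondrial oxidation enzymes, acyl-CoA thioesterases and the CYP4A hydroxylases. Hepatocytes in culture also lose, with time, part of the expression of bile acid, amino acid, cytochrome P450 and plasma protein genes that defines the tissue.

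The 10 arrays held hepatocyte RNA by their markers: of 13 tested hepatocyte markers, 3 rose (Arg1, Hnf4a and Cyp2e1) and 1 fell (Ahsg) from 24 h to 48 h, and their summed signal lay between 482198 and 565866 at 24 h and between 521784 and 598307 at 48 h. Few markers of other liver cells passed the test. Over all tested genes, 9.06% were called higher and 7.64% lower, so few calls were due in lists this short. Of 12 tested Kupffer cell markers, none rose and 1 fell (Lyz2, -0.35), with a summed signal of 13622 to 15416 at 24 h and 11236 to 16949 at 48 h. Of 14 stellate cell and matrix markers 1 rose (Fbn1, 0.86), of 10 cholangiocyte and progenitor markers 2 fell (Epcam and Sox4, the latter not called when any 1 of 8 of the 30 arrays was left out), and of 8 sinusoidal endothelial markers none was called. In bulk RNA, fewer cells of a type and less RNA per cell cannot be told apart.

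The measures of RNA quality overlapped between the times in 10 mM. As a measure that rises when RNA breaks down, the signal of the 3' beta-actin control probeset over that of its 5' counterpart (log2) was 1.44 ± 0.07 at 24 h and 1.41 ± 0.08 at 48 h (SD, n = 5 each; two-sided exact permutation test over 252 splits, p = 0.508). For GAPDH the same exact permutation test gave p = 0.865. Outside 10 mM, 3 arrays had a beta-actin ratio above 2, namely water replicate 3 of 24 h and 0.5 mM replicates 3 and 4 of 48 h. In water the ratio was 1.37 to 2.76 at 24 h and 1.20 to 1.33 at 48 h, without overlap. This measure of RNA quality and time therefore cannot be told apart in the water arrays, which enter each difference from water. One array of 10 mM stood apart from its group. Replicate 2 at 48 h lay apart from its 4 mates in 343 genes, by Dixon's criterion on the 5 values, against 89 to 138 genes for each other array at 48 h and 85 to 188 for the arrays at 24 h. It lay toward the water cultures: in the 752 genes called lower than water at 24 h by at least 1 on the log2 scale, its median deviation from its mates was 0.35, and in the 1010 genes called higher by as much it was -0.20.

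In all, 21729 probesets for 11604 genes were tested, each gene through its probeset with the highest mean signal. From 24 h to 48 h in 10 mM, 1051 genes (9.06% of those tested) were called higher and 887 (7.64%) lower, at a Benjamini-Hochberg adjusted p under 0.05 in limma. Most of the changes were small. Among all probesets, 1660 were called higher (7.64%) and 1273 lower (5.86%), the median size of these called changes was 0.46 on the log2 scale, and 117 rose and 75 fell by at least 1. The median change over all tested genes was -0.0078. The 5 values at 48 h lay wholly above those at 24 h in 1165 genes (10%) and wholly below in 1089 (9.38%). Without replicate 2 at 48 h the calls came to 1485 higher and 1092 lower probesets. With arrays centred on ribosomal protein genes they came to 1627 and 734.

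In water over the same time, 593 genes rose (5.11%) and 576 fell (4.96%), or 3.93% and 3.84% of probesets. Of the 1051 genes that rose in 10 mM, 136 also rose in water, which is 12.9% of the first list and 22.9% of the second, and 94 fell there. Of the 887 that fell in 10 mM, 105 also fell in water, or 11.8% and 18.2% of the lists, and 52 rose. The change in 10 mM was tested against the change in water as a difference of differences, and the changes share no array. That test called 769 genes higher (6.63%) and 720 lower (6.2%), and among them were 522 of the genes that rose in 10 mM and 441 of those that fell. The difference contains the change in 10 mM itself, so part of this overlap is built in and is no separate evidence. This split depends on the scaling: with arrays centred on ribosomal protein genes, 1602 probesets were called higher and 354 lower in this difference, against 1261 (5.8%) and 1024 (4.71%).

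Acot1, a cytosolic acyl-CoA thioesterase, had the largest rise among genes whose 10 values did not overlap. Its signals in replicates 1 to 5 were 5993, 4342, 4717, 4152 and 5470.3 at 24 h and 21008, 15524, 20789, 20614 and 23861 at 48 h. Every culture at 48 h thus stood far above every culture at 24 h, and the log2 change was 2.04 ± 0.33 (SE; adjusted p = 3.73e-05), against 0.34 in water. The water cultures had mean signals of only 99.7 ± 21 at 24 h and 164 ± 103 at 48 h (SD, n = 5). Other leading rises were Blvra, biliverdin reductase A (1.83 ± 0.20), Sult1e1, the estrogen sulfotransferase (1.74 ± 0.17), Crip1, a small LIM-domain protein (1.66 ± 0.22), Hao1, the glycolate oxidase of peroxisomes (1.36 ± 0.098), Calml4 (1.65 ± 0.23) and Hdc, the histidine decarboxylase that makes histamine (1.54 ± 0.32). Of these, Blvra, Sult1e1, Crip1, Hao1, Calml4 and Hdc each changed more than in water by the test of the difference. Ucp2, a mitochondrial carrier (1.58 ± 0.50), and Uchl1, a ubiquitin hydrolase best known from neurons (1.48 ± 0.46), lost their calls without single arrays: Ucp2 without replicate 2 or 3 at 24 h or 3 or 4 at 48 h (1.17 to 1.53), and Uchl1 without replicate 1, 2 or 4 at 24 h or 3 or 5 at 48 h (1.45 to 1.46). Tmem14a (1.44 ± 0.44) rose in water too (1.45) and lost its call without replicate 5 at 24 h (1.22). Serpinh1, the collagen chaperone, rose by 1.49 ± 0.31 on its brightest probeset, and its other probeset gave 0.13 and was not called.

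The largest fall was that of Cxcl1, a chemokine that attracts neutrophils. Its signals were 12799, 13077, 11772, 11769.6 and 9817 at 24 h and 1716, 1898, 2246, 2063 and 1595 at 48 h. All 5 cultures at 24 h were high and all 5 at 48 h low, with a log2 change of -2.63 ± 0.14 (adjusted p = 2.13e-14). In water it also fell, from a lower start (-1.46), and the difference between the changes was -1.17 (adjusted p = 1.19e-04). Steap4, a metalloreductase induced in inflammation, fell by 1.78 ± 0.12, from 20359.6, 19580.2, 21506, 21528 and 18110.3 to 5254, 6074, 5961, 7049.8 and 5114, with no overlap, and also fell in water (-1.01). Il1rn, the interleukin 1 receptor antagonist (-1.85), and Nfkbiz, a nuclear regulator of NF-kappaB (-1.38), also fell in water (-1.29 and -1.62), and for neither did the difference pass the test. A second Nfkbiz probeset was not called, at 0.58.

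Other large falls differed from the change in water. Ccn2, a matricellular growth factor, gave 21652, 23064, 20557, 22069.7 and 23612 at 24 h and 9925, 11254, 8517, 7791 and 9348 at 48 h. The values separated completely, with a change of -1.25 ± 0.097 in 10 mM against -0.015 in water and a gain of 0.48 in 0.5 mM. Asgr2, a subunit of the asialoglycoprotein receptor (-1.31), and Msra, a methionine sulfoxide reductase (-1.24), also fell more than in water. Loricrin fell by 1.81, with a difference from water of -2.43, so that its estimate in water was a rise. Its lowest culture at 48 h, replicate 3, gave a signal of only 112. Agps, a peroxisomal enzyme of ether lipid synthesis, fell by 2.15 ± 0.36, though its difference from the change in water did not pass the test (-1.17). Fabp4, a fatty acid binding protein of adipocytes (-1.70, against -1.10 in water), Fam117b (-1.47) and Lypd8 (-1.23) completed the leading falls, with the P450 genes Cyp2d2 and Cyp1a2 described with their family below.

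**Figure D1:**
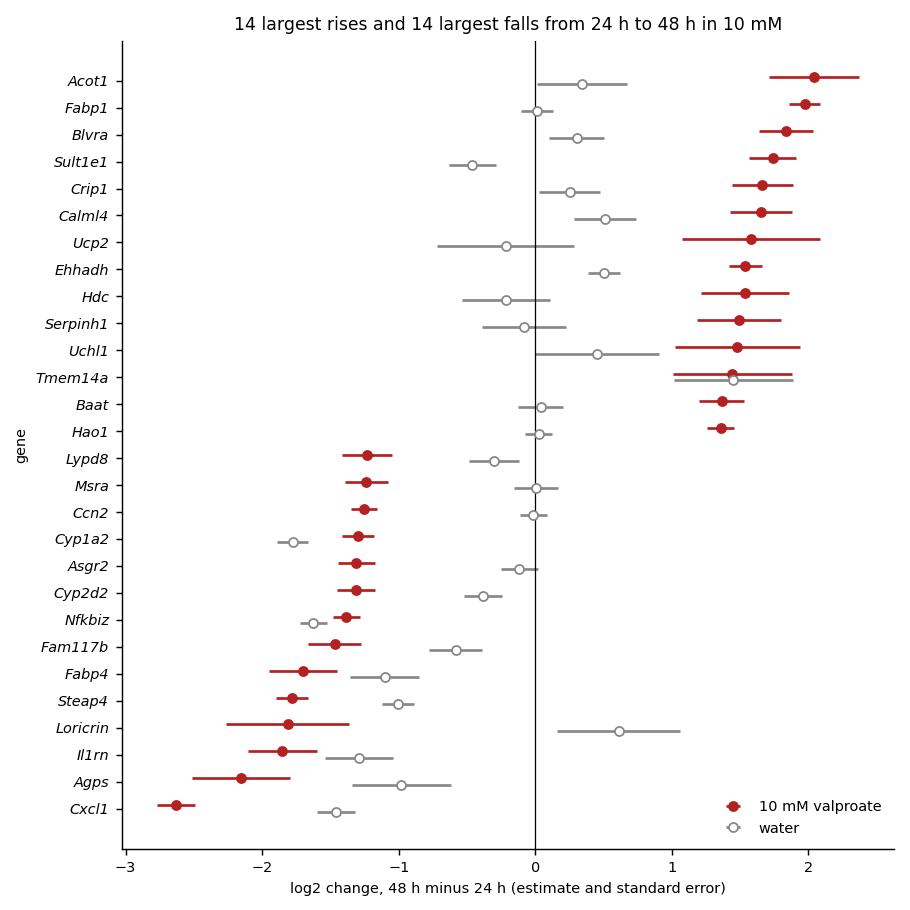
The 14 largest rises and 14 largest falls by the naming rule, as log2 change from 24 h to 48 h (horizontal axis) with its standard error, in 10 mM (red, filled) and in water (grey, open). Acot1 and Fabp1 rise by 2.04 and 1.97 in 10 mM and by 0.34 and 0.014 in water, whereas Cxcl1, Il1rn, Steap4, Nfkbiz and Cyp1a2 fall in both.

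Genes of fatty acid oxidation rose together. Of 27 tested PPARalpha and peroxisomal genes, 20 rose and none fell, with a median change of 0.60 against -0.0078 over all genes and 9.06% of all genes called higher. In water 8 of them rose, with a median of 0.15, and 16 of the 27 rose more in 10 mM than in water. When replicate 2 at 48 h was left out, 19 rose. The promoter of Fabp1, a PPARalpha target, is shown because this gene had the list's second largest rise. These are the 250 bases before its start in the RefSeq annotation of GRCr8 (chr4:104749090-104749339, plus strand), with the nuclear receptor half-site in capitals.
Fabp1: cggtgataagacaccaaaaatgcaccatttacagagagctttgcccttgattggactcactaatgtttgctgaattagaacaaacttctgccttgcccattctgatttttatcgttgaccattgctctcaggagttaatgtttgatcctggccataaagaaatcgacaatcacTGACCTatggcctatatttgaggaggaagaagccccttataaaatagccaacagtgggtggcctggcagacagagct
The capitals read TGACCT, the reverse complement of AGGTCA, 77 bases before the start. On either strand AGGTCA occurs in 13.7% of 27457 rat promoters of this length and in 5 of the 15 list members that rose and had a promoter in the table. The doubled site AGGTCANAGGTCA was searched without mismatches. Such exact matches were found in 0.0546% of promoters and in none of the 22 tested members with a promoter. The Fabp1 bases TGACCTatggcct, read on the other strand, differ from the doubled site at a single letter. These are matches of letters only.

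Fabp1 itself, the fatty acid binding protein of liver cytosol, gave 11083, 7111, 6383, 5838 and 6601 at 24 h and 33466, 29273, 25405, 22520.1 and 32377 at 48 h. The groups did not overlap, and the change was 1.97 ± 0.12 (adjusted p = 2.19e-13), which is 3.92-fold. In water the change did not pass the test (0.014, adjusted p = 0.964), and the difference between the changes was 1.96. Its level in 10 mM therefore lay below water at 24 h (-1.34) and above it at 48 h (0.61). These levels relative to water share the 10 mM arrays with the change over time and are given only beside it.

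Ehhadh, the peroxisomal bifunctional enzyme of beta-oxidation, gave 5252, 4509, 3609, 4168 and 4916 at 24 h and 15261, 10633, 12408, 11180.1 and 16267 at 48 h. Each culture at 48 h was above each at 24 h, the change was 1.54 ± 0.12, and water rose less (0.50; difference 1.04, adjusted p = 8.06e-05). Cyp4a1, a fatty acid omega-hydroxylase, went from 20306, 16512, 16729, 14940.2 and 21975 to 42354, 39836, 39367, 40797 and 44974, again without overlap, a change of 1.21 ± 0.077 against 0.62 in water. The thioesterases Acot2 (0.64 ± 0.072), Acot3 (1.16 ± 0.11) and Acot4 (1.03 ± 0.091) and the pantetheinase Vnn1 (1.06 ± 0.073) rose more than in water as well. Cd36, a fatty acid transporter, rose by 1.26 ± 0.23, but it rose by 1.47 in water and the difference did not pass the test. Fgf21, a fasting hormone of the liver, rose by 0.85 ± 0.12. The peroxisomal genes Hsd17b4 (0.62 ± 0.057), Crat (0.60 ± 0.13), Ech1 (0.46 ± 0.063), Pex19 (0.34 ± 0.10), Cat (0.33 ± 0.064), Abcd3 (0.31 ± 0.057) and Pex11a (0.29 ± 0.058), the CYP4A gene Cyp4a3 (0.58 ± 0.082), the thiolase Acaa2 (0.67 ± 0.056) and the glycerol channel Aqp7 (0.70 ± 0.12) made up the rest. Among the 7 not called were Pdk4, which restrains pyruvate oxidation, and Angptl4, an inhibitor of lipoprotein lipase. Pdk4 stood 3.24 above water at 24 h and changed by 0.14 ± 0.095 after it (adjusted p = 0.413). Angptl4 stood 1.60 above water at 24 h and changed by -0.047 (adjusted p = 0.787). Acot1, which had the largest rise, also stood far above water at 24 h. A link between the level at 24 h and the later change was not tested.

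The mitochondrial pathway followed with smaller steps, against 9.06% of all genes called higher and 7.64% lower. Of 28 tested genes of mitochondrial beta-oxidation and carnitine metabolism, 15 rose and none fell, with a median change of 0.26, and 12 rose without replicate 2 at 48 h. In water 1 rose and 2 fell. Bbox1, the last enzyme of carnitine synthesis (0.96 ± 0.11), the medium-chain acyl-CoA synthetase Acsm3 (0.78 ± 0.13), the glycine acyltransferase Glyat (0.75 ± 0.12), the very long-chain dehydrogenase Acadvl (0.57 ± 0.072) and the electron transfer enzyme Etfdh (0.50 ± 0.072) led them, and each of these 5 rose more than in water. With the mean of its probesets, the Bbox1 difference from water was 0.57 and not called (adjusted p = 0.0637). Bbox1, Glyat, Acadvl and Etfdh were still below water at 48 h, with log2 differences of -1.53, -1.65, -0.55 and -0.25. Cpt1a, the entry step of long-chain fatty acids into mitochondria, rose by 0.45 ± 0.12 (adjusted p = 0.00866), with a difference from water of 0.16 that did not pass the test. Of 5 ketone body genes, Acat1 rose (0.19) and the transporter Slc16a1 fell (-0.35). Of 45 oxidative phosphorylation genes 3 rose, a share below that of all genes, with Ndufb8 (0.82 ± 0.14) leading Ndufs8 and Ndufs3.

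Lipid storage genes moved in both directions, against 9.06% of all genes called higher and 7.64% lower. Of 22 genes of lipid droplets, triglyceride handling and lipoprotein export, 9 rose and 2 fell, with a median of 0.17, whereas in water 1 rose and 5 fell. Plin5, which coats droplets next to mitochondria, rose by 0.70 ± 0.19, the monoglyceride lipase Mgll by 0.54 ± 0.12, and G0s2, an inhibitor of the triglyceride lipase ATGL, by 0.51 ± 0.078. Hilpda, another ATGL inhibitor, fell by 0.50 ± 0.10, and the hepatic lipase Lipc fell by 0.69 ± 0.072, and in water too (-0.75). Plin2, the main droplet coat of hepatocytes, gave 48162, 59827, 52664, 55930.0 and 55254 at 24 h and 61131, 61827, 54101, 56126 and 55780.4 at 48 h. The groups overlapped, and the change of 0.090 ± 0.059 did not pass the test (adjusted p = 0.394). Its second probeset was called lower, at -0.51.

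Genes that make fatty acids moved in both directions, and those of cholesterol fell or were not called. Of 20 genes of fatty acid synthesis, 3 fell and 2 rose: Scd, the stearoyl-CoA desaturase (-0.77 ± 0.095), Acly, the ATP citrate lyase (-0.45 ± 0.11), and Acss2 (-0.34) fell, and Me1, malic enzyme (0.40 ± 0.083), and Mid1ip1 (0.37) rose. The other Me1 probeset gave 0.0093 and was not called. Fasn, fatty acid synthase, was not called (-0.17, adjusted p = 0.47), with signals of 2882, 2539, 2433, 2594 and 2633 at 24 h and 2107, 3545, 2032, 1813 and 2469.7 at 48 h. The groups overlapped, with replicate 2 at 48 h the highest of the 10, and without that array the change was -0.32 (adjusted p = 0.0406). Of 21 genes of cholesterol synthesis and uptake, 7 fell and none rose, against 7.64% of all genes called lower, with a median of -0.14. Water had 6 lower. The sterol carrier Stard4 (-0.66) and the enzymes Tm7sf2 (-0.59) and Ebp (-0.47) led, and each fell more than in water. Only 1 of the 3 tested Stard4 probesets was called, and the others ranged up to -0.0093. Of the 7, 6 fell without replicate 2 at 48 h.

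Bile acid synthesis rose as a group, against 9.06% of all genes called higher. Of 14 tested genes of bile acid synthesis and conjugation, 10 rose and none fell, with a median of 0.46, against 1 higher and 1 lower in water. Leaving out replicate 2 at 48 h, 8 rose. Cyp7a1, the rate-limiting enzyme of the pathway, gave 521, 429.8, 332, 256 and 338 at 24 h and 1112, 1939, 856, 512 and 1031 at 48 h. Only the lowest culture at 48 h, replicate 4, reached into the range at 24 h, and the change was 1.41 ± 0.20 (adjusted p = 7.05e-06). Water cultures changed by -0.54 and stood far higher, at 4638 ± 489 and 3191 ± 366, so that 10 mM lay -3.60 from water at 24 h and -1.66 at 48 h on the log2 scale. Baat, which conjugates bile acids to amino acids, went from 2204, 1328, 1452, 1278 and 1476 to 4235, 6964, 2929.7, 2718 and 3987. No culture overlapped, and replicate 1 at 24 h was high among its mates, as was replicate 2 at 48 h. Its change was 1.36 ± 0.17 against 0.041 in water. Acox2, the side-chain oxidase (1.12 ± 0.10), and Cyp8b1, the sterol 12-alpha-hydroxylase (1.08 ± 0.13), also rose more than in water, where Acox2 fell (-0.73).

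Receptors of this pathway rose as well. Nr1h4, the bile acid receptor FXR, rose by 0.50 ± 0.087, and Nr0b2, the repressor SHP, by 1.51 ± 0.44, from a low signal of 148, 29.7, 61.9, 166 and 58.3 to 191, 251, 243, 330.1 and 279. Without replicate 2 at 24 h, the lowest of these, the Nr0b2 change was 1.24 and not called (adjusted p = 0.0736). Slc27a5, the bile acyl-CoA synthetase, did not pass the test (-0.12), and without replicate 2 at 48 h it was called lower (-0.29). Among 18 transporters of bile acids and organic anions, 5 rose and 2 fell, against 9.06% and 7.64% of all genes. The rises were led by the uptake carrier Slco1b2 (0.91 ± 0.15) and Abcc6 (0.54 ± 0.13). The other Slco1b2 probeset gave 0.11 and was not called. Slc10a1, the sodium-dependent bile acid uptake carrier, fell by 0.76 ± 0.21, and this call was lost without replicate 3 (-0.59) or 4 (-0.58) at 48 h.

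Some transcription factors of the hepatocyte rose too. Of 26 tested, 6 rose and 1 fell, against 9.06% and 7.64% of all genes, and in water 1 rose and 2 fell. The test of the difference from water called 6 of the 26 higher, against 6.63% of all genes. Hnf4a, the central nuclear receptor of hepatocyte identity, gave 7519, 7148, 6632, 7141 and 7106 at 24 h and 11028, 10247, 10594, 10658 and 10615 at 48 h. The values were tight and separate, with a change of 0.58 ± 0.10 (adjusted p = 1.01e-04), and all 3 of its tested probesets were called higher (0.47 to 1.06). In water it fell (-0.63), and the difference between the changes was 1.21 (adjusted p = 6.08e-07). The oxysterol receptor Nr1h3 (0.93 ± 0.14), the xenobiotic receptors Nr1i3, or CAR (0.62 ± 0.14), and Nr1i2, or PXR (0.51 ± 0.075), Nr1h4 and Rxrg (0.45) were the others, and Onecut2 fell (-0.31).

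**Figure D2:**
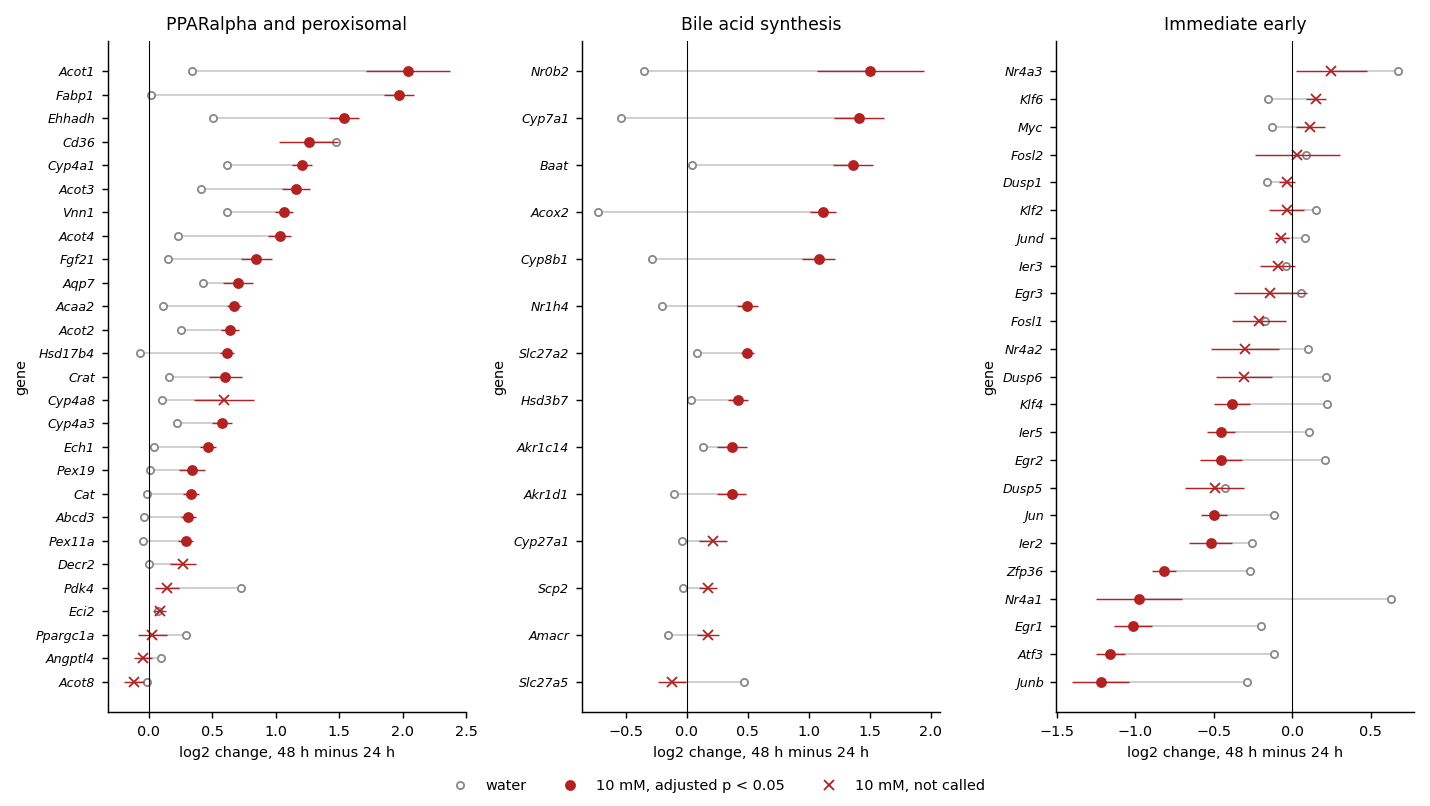
Log2 change from 24 h to 48 h of every tested member of 3 gene lists in 10 mM (red, with standard error; filled circles called, crosses not called) and in water (grey, open). In the left and middle panels 20 of 27 and 10 of 14 members are called higher in 10 mM, and in the right panel 10 of 23 are called lower.

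Part of the genes of amino acid breakdown rose in 10 mM, and part fell in water. Of 35 genes of amino acid breakdown, 13 rose and 3 fell in 10 mM, with a median of 0.27, while in water none rose and 9 fell. The test of the difference called 10 of them higher and none lower. The list lay below water at both times, with a median log2 difference of -0.88 at 24 h and -0.53 at 48 h. Hal, histidase, gave 297, 239, 409, 252 and 285 at 24 h and 591, 686, 496, 470.2 and 586 at 48 h. These did not overlap, and the change was 0.91 ± 0.14, against -0.82 in water. Choline dehydrogenase Chdh (0.88 ± 0.13), urocanase Uroc1 (0.55 ± 0.13) and the methionine adenosyltransferase Mat1a (0.55 ± 0.12) rose too. Gnmt, the glycine N-methyltransferase, fell by 0.56 ± 0.13, and replicate 2 at 48 h lay within its range at 24 h. Of 11 urea cycle genes, Arg1, arginase, rose by 0.76 ± 0.082 and the aspartate carrier Slc25a13 by 0.50 ± 0.088, and Cps1, the first enzyme, did not pass the test (0.10, adjusted p = 0.246). Its other probeset gave 0.38, and with the mean of the probesets Cps1 was called higher (0.24, adjusted p = 0.0274). Of 21 genes of branched-chain amino acid and propionate breakdown 3 rose: Hsd17b10 (0.25 ± 0.058), Mmut, the methylmalonyl-CoA mutase (0.29 ± 0.064), and Abat, the GABA transaminase (0.51 ± 0.13), whose other probeset gave -0.31 and was not called. Over all genes, 9.06% were called higher and 7.64% lower.

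Genes of glucose metabolism were called in both directions, against 9.06% of all genes called higher and 7.64% lower. Of 16 genes of gluconeogenesis and glucose control 5 rose and 2 fell, while in water none rose and 6 fell. Their median log2 difference from water was -0.58 at 24 h and -0.40 at 48 h. Pck1, the cytosolic PEP carboxykinase, gave 4386, 3504, 4207, 3709 and 3803 at 24 h and 7919, 6927, 9181, 9349 and 10254 at 48 h. Its groups did not overlap, the change was 1.14 ± 0.20, and the mitochondrial form Pck2 rose by 0.95 ± 0.13. Gpt, alanine aminotransferase (-1.05), and Slc37a4, the glucose 6-phosphate transporter (-1.03), fell. Of 20 glycolysis genes 2 rose and 3 fell, led by the lactate dehydrogenase subunit Ldhb (0.74 ± 0.10), the glucose transporter Slc2a1 (-0.74) and the liver pyruvate kinase Pklr (-0.64). The other Pklr probeset was called lower too, at -1.63.

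Cytochrome P450 genes split by member. Of 23 constitutive P450 genes 10 rose and 7 fell, shares of which both exceed those of all genes, while in water 2 rose and 10 fell. Without replicate 2 at 48 h, 9 rose and 7 fell. The median log2 difference of the 23 from water was -0.71 at 24 h and -0.49 at 48 h. Cyp2e1, which oxidises ethanol and small solvents, gave 3150.2, 2791, 3037, 3239 and 3115 at 24 h and 4833, 4512, 4401, 4325 and 4460.1 at 48 h. It rose without overlap by 0.55 ± 0.097, whereas it fell in water (-0.57) and in 0.5 mM (-0.86). Cyp2c13, a male-specific form, rose by 0.33 ± 0.087 against -1.10 in water, and Cyp2f4 rose by 0.70 ± 0.16 (0.45 without replicate 2 at 48 h). The falls were led by Cyp2d2 (-1.31), the arachidonate epoxygenase Cyp2c23 (-1.17) and Cyp2c12 (-1.07), and each of the 3 fell more than in water. In Cyp2d2 replicate 2 at 48 h gave 7674 against 3048 to 4017 in its mates. Without that array the changes of Cyp2d2 and Cyp2c12 were -1.55 and -1.37.

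Genes under the xenobiotic receptors mostly rose or were not called, against 9.06% of all genes called higher and 7.64% lower. Of 18 CAR and PXR targets, 9 rose and 1 fell, with a median of 0.27, and in water none rose and 5 fell. Relative to water, the median of the 18 was -0.35 at 24 h and -0.21 at 48 h. Cyp2b3 gave 7246, 6488, 7149.8, 7775 and 7299 at 24 h and 12922, 12013, 12358, 11882 and 12246 at 48 h. It rose without overlap by 0.77 ± 0.078 against -0.43 in water. Cyp3a2, a male-specific CYP3A form, rose by 0.41 ± 0.090 while it fell in water (-1.29), a difference of 1.70 (adjusted p = 8.85e-11). Alas1, the first enzyme of haem synthesis, rose by 0.43 ± 0.081, and the efflux pump Abcb1a fell by 0.60 ± 0.14. Of 7 aryl hydrocarbon receptor targets, Cyp1a1 (0.75 ± 0.19) and Nqo1 (0.50 ± 0.052) rose, and Cyp1a2 (-1.30) and Tiparp (-0.29) fell. Cyp1a2 fell in water as well (-1.78).

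Of 21 Nrf2 targets 6 rose and 2 fell, with the glutathione transferases Gsta3 (0.70 ± 0.11) and Gstp1 (0.50 ± 0.079) above Nqo1. Among 26 conjugation enzymes 5 rose and 2 fell. For both lists, the shares over all genes were 9.06% higher and 7.64% lower. Sult1e1 gave 2843, 2089.7, 2236, 1777 and 2154 at 24 h and 8248, 6788, 7272, 6607 and 8016 at 48 h. The groups were far apart, and the level moved from -1.39 relative to water at 24 h to 0.80 at 48 h. The sulfotransferase Sult1c3 (1.30 ± 0.15) and the glutathione transferase Gstm7 (0.67 ± 0.084) followed.

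Immediate early genes, the transcription factors and RNA-binding proteins that cells switch on first after a stimulus, went down. Of 23 tested, none rose and 10 fell, against 7.64% of all genes called lower, with a median of -0.31. In water 2 fell, and 9 of the 23 fell more than in water. Without replicate 2 at 48 h, 9 fell. Promoter sequences of 3 of the genes that fell are shown because this family is known for cyclic AMP response and serum response elements close to the start. Each line gives the 250 bases before the start in RefSeq's GRCr8 annotation, with the TGACG half-site of cyclic AMP response elements, on either strand, in capitals for Junb (chr19:40080876-40081125, plus strand) and Nr4a1 (chr7:134259888-134260137, plus strand), and a CArG box in capitals for Zfp36 (chr1:92799109-92799358, minus strand).
Junb: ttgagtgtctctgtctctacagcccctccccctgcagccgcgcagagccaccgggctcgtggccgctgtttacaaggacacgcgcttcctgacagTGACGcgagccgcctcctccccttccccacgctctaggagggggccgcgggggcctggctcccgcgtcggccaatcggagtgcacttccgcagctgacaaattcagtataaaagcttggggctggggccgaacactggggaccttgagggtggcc
Nr4a1: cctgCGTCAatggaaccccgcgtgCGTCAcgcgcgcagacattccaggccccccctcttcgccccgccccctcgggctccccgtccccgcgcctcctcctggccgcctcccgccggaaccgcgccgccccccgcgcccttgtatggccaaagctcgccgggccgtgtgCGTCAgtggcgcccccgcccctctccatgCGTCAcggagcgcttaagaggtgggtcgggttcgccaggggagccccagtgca
Zfp36: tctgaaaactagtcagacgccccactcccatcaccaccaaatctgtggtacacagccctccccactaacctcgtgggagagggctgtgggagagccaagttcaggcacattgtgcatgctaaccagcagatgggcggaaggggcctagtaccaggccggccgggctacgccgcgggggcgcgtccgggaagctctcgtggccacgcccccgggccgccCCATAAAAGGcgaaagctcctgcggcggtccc
This half-site stands 155 bases before the Junb start, and 4 copies, on the other strand as CGTCA, stand 246, 226, 82 and 53 bases before that of Nr4a1. The match to the CArG pattern in Zfp36 stands 32 bases before its start. Of the 16 tested members with a listed promoter, 10 held TGACG and 5 a CArG box, against 18.96% and 1.501% of all 27457 promoters. Among the 8 of them that fell the counts were 5 and 3. These, too, are matches of letters only, and their function was not tested.

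Atf3, a stress-induced transcription factor, gave 13197, 14511, 13771, 13352 and 10941 at 24 h and 6929.8, 5342, 5762, 5598 and 5742 at 48 h. All values at 48 h were lower, and Atf3 fell by 1.16 ± 0.093 (adjusted p = 9.86e-11), while water changed by -0.12. At 48 h Atf3 still stood 1.31 above water, after 2.35 at 24 h. Junb, an AP-1 subunit, gave 1791, 1815, 1794, 1896 and 1154 at 24 h and 562, 774, 571, 863 and 809.6 at 48 h, with replicate 5 low among its mates at 24 h but above all cultures at 48 h. It fell by 1.22 ± 0.18. Egr1, a zinc finger factor, went from 7155, 7830.1, 7402, 7175 and 6505 to 4311, 2776, 3187, 3819 and 3894, without overlap, and fell by 1.02 ± 0.12.

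Zfp36, which destabilises cytokine mRNAs, gave 4849, 4677, 4847, 4774 and 3995 and then 2483, 2513, 2678, 2571 and 2823, likewise separate, and fell by 0.82 ± 0.074. Nr4a1, an orphan nuclear receptor, gave 527, 501, 492, 497 and 545 and 372, 176, 148, 386 and 264, which did not overlap, and fell by 0.98 ± 0.27. That call was lost without replicate 3 at 48 h (-0.80, adjusted p = 0.0567). Ier2 (-0.52), Jun (-0.50), Egr2 (-0.46), Ier5 (-0.46) and Klf4 (-0.39) fell less, and Myc, Klf6, Jund and Ier3 were among the 13 members that were not called.

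Many plasma protein genes of the innate and clotting systems fell, against 7.64% of all genes called lower and 9.06% higher. Of 28 acute phase and interleukin 6 response genes, 12 fell and 1 rose, with a median of -0.21. In water 13 were lower and 1 higher, and 4 of the 28 fell more in 10 mM than in water. Besides Cxcl1 and Il1rn, the chemokine Ccl2 fell by 1.67 ± 0.34 from a low signal (219.7, 177, 151, 197 and 173) to 16.7, 191, 30.8, 19.3 and 68.4, where replicate 2 at 48 h stayed at the level of 24 h. A2m, alpha-2-macroglobulin, fell by 0.87 ± 0.11, and also fell in water (-0.84). Of 22 coagulation and fibrinolysis genes 11 fell and 1 rose, with a median of -0.30 and the same counts of 11 and 1 in water. Plg, plasminogen, gave 22338, 27002, 24977, 25677 and 23563 at 24 h and 11864, 16150.5, 9789, 10382 and 12001 at 48 h. These separated. Plg fell by 1.06 ± 0.098, and the difference from the change in water was -0.58 (adjusted p = 0.00507). Hrg, histidine-rich glycoprotein (-0.98), factor X, F10 (-0.74), and Proc, protein C (-0.56), fell as well, and the plasminogen activator Plat fell by 0.77 ± 0.12 where water rose by 0.76.

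Of 23 complement and lectin genes 9 fell and 3 rose, against 7.64% and 9.06% of all genes, and in water 9 fell. C9, the pore-forming component, gave 7543, 7038, 7425, 7263 and 6765 at 24 h and 2853, 5141, 2978, 3004 and 3132 at 48 h. It fell by 1.11 ± 0.10, more than in water (-0.24; difference -0.86), and replicate 2 at 48 h was the highest of its group. C8g (-0.82), C3 (-0.75) and C5 (-0.66) fell, C3 and C5 in water too (-0.98 and -0.76), while C4bpb, a chain of the C4b-binding protein, rose by 0.54 ± 0.097 against -0.75 in water. Among 23 carriers and apolipoproteins 6 fell and 3 rose: Apoa2 (-0.88) and the cholesterol acyltransferase Lcat (-0.69) led the falls and Serpina7, thyroxine-binding globulin (1.05 ± 0.11), the rises. Alb, albumin, did not pass the test (0.10, adjusted p = 0.514).

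Hamp encodes hepcidin, the hormone that blocks iron release, and was already among the genes raised by the dose at 24 h. It gave 44480.3, 55052, 50900.2, 52524 and 47819.7 at 24 h and 66739.9, 60719, 70006, 72991 and 65913 at 48 h, against means of 2583 and 2359.6 in water. The 10 mM values did not overlap between the times, and the further rise was 0.42 ± 0.11 (adjusted p = 0.00471), 0.56 more than in water. Of 18 iron genes 3 rose and 1 fell: Hjv, the hepcidin co-receptor hemojuvelin (0.76 ± 0.095), and the iron exporter Slc40a1 (0.30) rose, and the ligand Bmp2 fell (-0.74). Of 8 metallothionein and zinc genes 3 rose: Mt1, metallothionein 1 (0.97 ± 0.18), and the transporters Slc30a10 (0.67 ± 0.13) and Slc39a8 (0.43 ± 0.081). Over all genes, 9.06% were called higher and 7.64% lower.

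**Figure D3:**
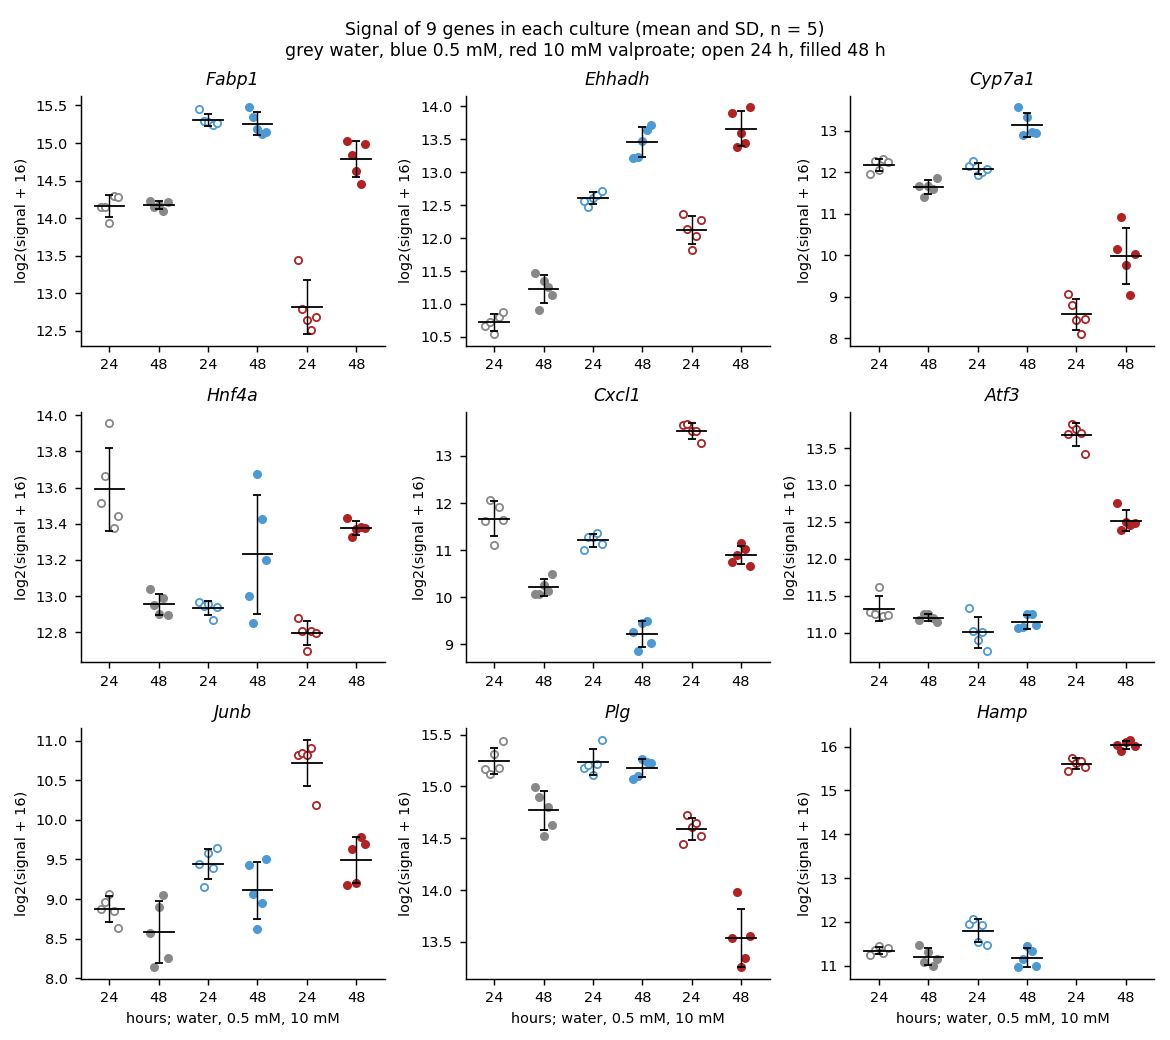
Signals of 9 genes in each of the 30 cultures as log2(signal + 16), with mean and SD of each group (n = 5), for water (grey), 0.5 mM (blue) and 10 mM (red) at 24 h (open) and 48 h (filled). The 10 mM groups do not overlap in 8 of the genes, and in Cyp7a1 1 culture at 48 h reaches into the range at 24 h.

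Stress lists held calls in both directions, against 9.06% of all genes called higher and 7.64% lower. Of 30 ATF4 and amino acid response genes 4 rose and 3 fell, and the falls were Atf3, Slc1a4 (-0.60) and Ddit3, the apoptosis regulator CHOP (-0.58). Without replicate 1 at 24 h or 2 at 48 h, 2 of the 30 rose. Of 22 ER chaperone genes 2 rose and 3 fell, with Pdia4 (-0.34), Dnajc3 (-0.26) and Xbp1 (0.26) as the largest, and of 15 heat shock genes 4 rose and 2 fell, among them Hspa4 (0.62), Hspb1 (0.60) and Cryab (0.50) upward. Without replicate 2 at 48 h, 3 of the 15 rose, and Cryab gave 0.31. Of 17 p53 and DNA damage genes 4 fell, led by Gadd45g (-0.67), Gadd45b (-0.59) and Xpc (-0.41), and 2 rose. Cdkn1a, the p21 inhibitor of cyclin-dependent kinases, was not called (0.070, adjusted p = 0.87).

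Few genes of the cell cycle and of chromatin passed the test, against 9.06% of all genes called higher and 7.64% lower. Of 32 DNA replication genes 1 rose and 2 fell, Tk1 (-0.50) most clearly, of 22 mitosis genes 1 rose (Mad2l1, 0.52), and of 23 G1 cyclins and inhibitors 1 rose (Rbl2, 0.45) and 3 fell, with Cdkn2d (-0.57) first. Without replicate 2 or 5 at 48 h, 1 of these 23 fell. Ccnd1, cyclin D1, did not pass the test (0.24, adjusted p = 0.267): 4 cultures at 48 h lay between 1994 and 2066, and replicate 2 at 1376. Of 22 histone deacetylase and corepressor genes 1 rose and 1 fell. Hdac1, a target of the drug, gave 5787, 5714, 5743, 6151 and 6344 at 24 h and 4964, 4555, 5049, 5322 and 5368 at 48 h and was not called (-0.24, adjusted p = 0.654), although the groups did not overlap. It was called lower when only the groups compared were fitted (-0.24, adjusted p = 0.00804) and with the actin ratio as a covariate (-0.27, adjusted p = 0.0441). Of 24 neuronal genes 1 rose (Uchl1), and of 17 clock genes the receptor Nr1d2 rose (0.32) and 3 fell, among them the receptor Rora (-0.59), whose second probeset was not called (0.21).

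Part of the proteasome rose. Over all tested genes, 9.06% were called higher and 7.64% lower. Of 35 subunits 10 rose and 1 fell, with the core subunit Psma3 (0.57 ± 0.080), the lid subunit Psmd7 (0.46 ± 0.065), Psmd1 (0.41 ± 0.094) and the ATPase Psmc5 (0.36 ± 0.073) upward and the immunoproteasome subunit Psmb10 downward (-0.52), where water rose by 0.45. With 1 array left out at a time, 8 to 12 subunits rose. Of 19 aminoacyl-tRNA synthetases 4 rose and 1 fell, Tars1 most (0.42 ± 0.10), and 2 rose without replicate 2 at 48 h. None of 32 cytosolic ribosomal protein genes was called, with a median of -0.0040. Of 34 cytoskeleton and junction genes 5 rose and 2 fell, with Anxa3 (0.58 ± 0.072) and Tpm1 (0.44 ± 0.055) upward on their brightest probesets and Ocln, occludin, downward (-0.40). The 4 tested Anxa3 probesets ranged from -0.08 to 1.77, with 2 called higher. Of the 5 tested Tpm1 probesets 1 was called higher and 1 lower, the latter at -0.52. Of these 34, 3 rose without replicate 2 at 48 h. Of 23 antigen presentation genes 1 fell (Irf7, -0.70), and of 14 genes of the insulin-like growth factor axis 1 fell (Igf1, -0.35).

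**Figure D4:**
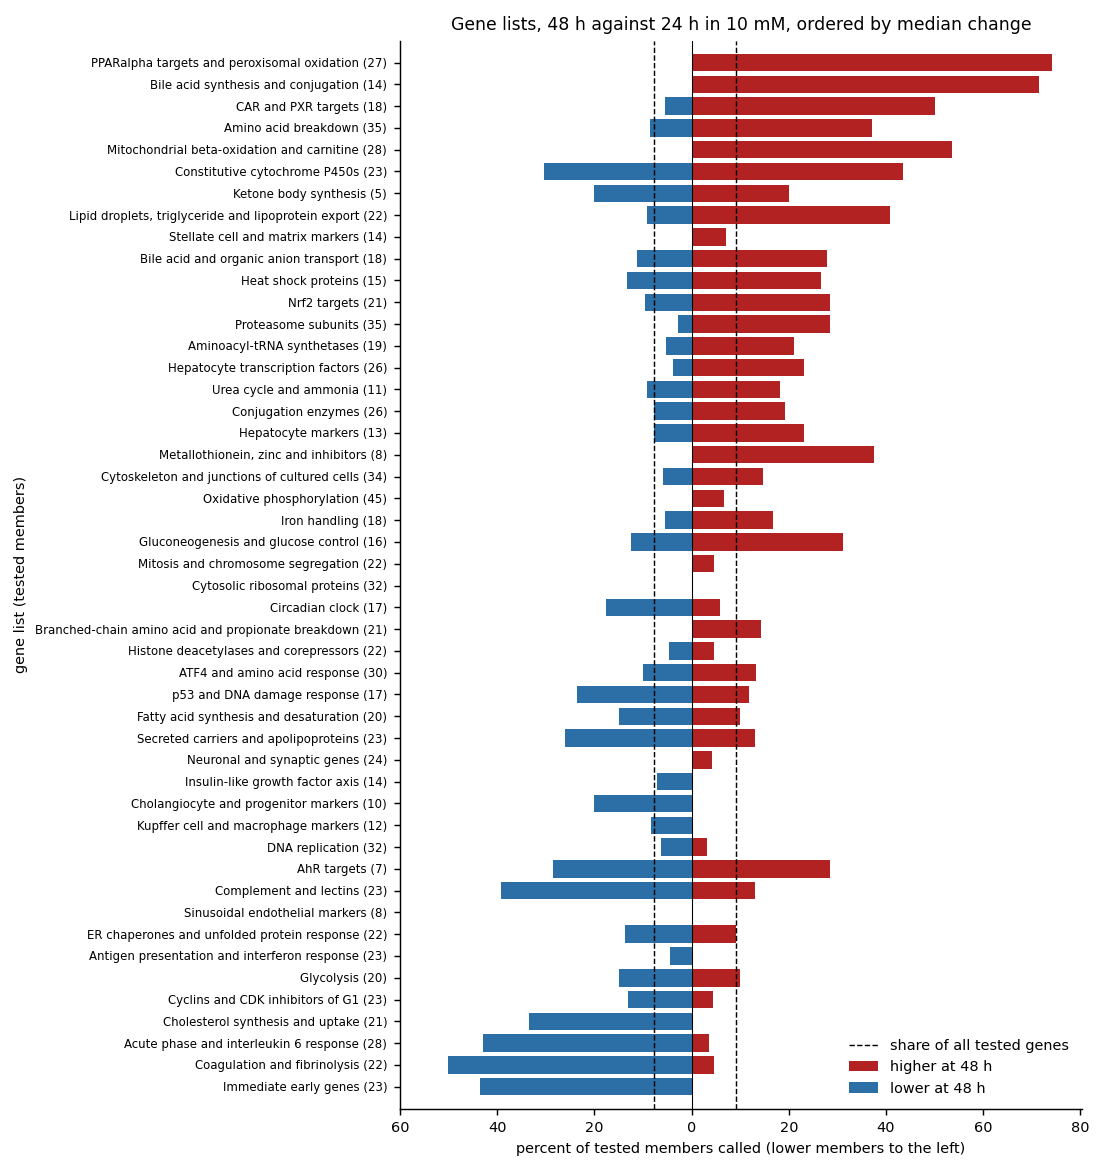
Share of the tested members of each of 48 gene lists called higher (red, to the right) and lower (blue, to the left) at 48 h in 10 mM, ordered by the list's median change, with the number tested in parentheses. Dashed lines mark the shares of all 11604 genes, 9.06% higher and 7.64% lower, and PPARalpha targets and immediate early genes lie at the ends.

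Some of the largest departures from the change in water were genes that moved in opposite directions. Car3, the muscle and liver carbonic anhydrase, gave 3679, 3215, 3819, 3888 and 3474 at 24 h and 7017, 6663, 8044, 7752 and 7685 at 48 h. It rose without overlap by 1.04 ± 0.11 while it fell in water (-0.95) and in 0.5 mM (-1.22). Tsku, tsukushi, a protein secreted by liver, went from 1298, 1105, 1189, 1065 and 1246 to 2586, 2750.2, 2259, 2224 and 2738, with a change of 1.08 ± 0.098 against -0.90 in water. Slc5a3, the inositol transporter, gave 874, 895, 978, 965 and 846 at 24 h and 334, 203, 631, 469 and 429 at 48 h. The groups did not overlap. Slc5a3 fell by 1.20 ± 0.20 where water rose by 0.67, a difference of -1.87. Sugct fell (-0.82) where water rose (0.63), and Lmcd1 fell (-0.50) where water rose by 0.74 and 0.5 mM by 0.99, although the Lmcd1 fall was not called without replicate 3 at 48 h (-0.46).

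Against 0.5 mM the difference of the changes called 778 genes higher (6.7%) and 827 lower (7.13%), or 5.18% and 5.38% of probesets. Car3 (2.25), Sult1e1 (2.25), Crip1 (2.15) and Fabp1 (2.02) were at the upper end, and Ccn2 (-1.74) and Slc5a3 (-1.68) at the lower. Fabp1 was not called in 0.5 mM (-0.049), where its mean signal was already 40541 ± 2339 at 24 h, above both 10 mM groups. The change in 0.5 mM itself moved more with single arrays. It had 1842 higher (8.48%) and 1442 lower (6.64%) probesets, but 631 and 447 without the 3 arrays of high actin ratio, and leaving out replicate 3, 4 or 5 of 0.5 mM at 48 h alone gave 1069, 1054 or 1192 higher. For the change in 10 mM, leaving out those 3 arrays, none of which is a 10 mM array, gave 2010 higher and 1635 lower.

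A few genes named by the rule lay at the edge of the threshold. Cyp4b1 (0.66), Cxcl2 (-1.01) and Spire1 (-0.57) lost their calls when any 1 of 19, 20 and 24 of the 30 arrays was left out, and Glul (-0.22) and Tatdn2 (-0.59) when any 1 of 8 and 6 was. With the mean of a gene's probesets, Nfkbiz (-0.40), Sox4 (-0.27), Rora (-0.19), Spire1 (-0.13), Glul (-0.076), Tpm1 (0.099), Abat (0.10), Nr1d2 (0.13), Farsb (0.15) and Mmut (0.19) were not called. Mcm10 (0.47) was not called without replicate 3 or 4 at 24 h or 2 or 5 at 48 h (0.38 to 0.46), Ccne2 (-0.46) without 4 at 24 h or 2 or 5 at 48 h (-0.44 to -0.34), and Bmal1 (-0.41) without 4 at 24 h or 2 at 48 h (-0.39 to -0.34). Aars1 (0.28) needed replicate 2 at 48 h (0.23 without it), Farsb (0.27) replicate 2 at 24 h and 3 at 48 h (0.22 to 0.24), and Ptov1 (1.66) replicates 3 and 4 at 24 h and 3 at 48 h (1.14 to 1.56).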

How the data were processed

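The data are the deposited series table of MAS5 signal intensities on a linear scale, 1 value per probeset and array, from rat Affymetrix arrays of 30 cultures in 6 groups of 5. The summary method, MAS5, comes from the submitters' processing notes (no version or setting is stated). The authors' scaling shows in the values: the mean intensity, after trimming 2% at each end, was 1500.53 to 1500.68 on every array. Arrays give no read depth, and their number limits the precision. Genes were named through the platform annotation, in which 20826 probesets have 1 symbol, 436 several and 9780 none (left unnamed).

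Signals were analysed as log2(signal + 16), so that changes of dim genes are understated. Probesets below the 30th percentile of the mean were left out. One limma 3.58.1 model (lmFit and eBayes with trend, R 4.3.3) on all 30 arrays, with 24 residual degrees of freedom, gave log2 changes, standard errors and two-sided p-values, adjusted over all tested probesets, with calls at 0.05. Figures used matplotlib 3.10.9. The model was tested on simulated data. The text names the 14 largest rises and falls whose values do not overlap and are not dim, the 3 or 5 largest called members of each of 48 gene lists that had at least 3, the 6 largest per direction in each difference of changes, and a few fixed genes. Other genes of a list are named to account for its called members. The members and lists were chosen with earlier results of these data known. Alternatives covered the pseudocount, filter, normalization, covariates, array weights, summary over probesets, a fold minimum and each array left out.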

Additional observations from a re-analysis of the deposited data

Results flagged for a closer look

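In 30 of 360 groups of 5 checked, 1 array lay apart from the others: the gap to its neighbour was over 0.71 of the group's range, which chance gives in about 1 in 20 groups. The share is printed after each gene. Replicate 2 of 10 mM at 48 h was highest in Msra (0.790), Glyat (0.807), Acly (0.753), Slc37a4 (0.785), Abat (0.868), Cryab (0.793), C9 (0.842), Anxa3 (0.796) and Tpm1 (0.847) and lowest in Uchl1 (0.886), Slc2a1 (0.835) and Ccnd1 (0.912). Replicate 5 of 10 mM at 24 h was highest in Ccnd1 (0.744), Acot2 (0.737) and Slc27a5 (0.797) and lowest in Hspb1 (0.735), Gadd45g (0.780), Cxcl2 (0.771), Junb (0.885) and Zfp36 (0.814). Replicate 1 of 10 mM at 24 h was highest in Baat (0.736) and Hjv (0.739) and lowest in Alb (0.803). Replicate 2 of 10 mM at 24 h was highest in Psmd1 (0.745) and lowest in Fabp4 (0.739). Replicate 3 of 10 mM at 48 h was lowest in Loricrin (0.804). Replicate 1 of 10 mM at 48 h was lowest in Rbl2 (0.846). Replicate 3 of 10 mM at 24 h was highest in Lcat (0.787). The beta-actin ratio of replicate 3 of water at 24 h (0.760) and of replicate 1 of water at 48 h (0.784) was apart from its group as well.

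The log2 change from 24 h to 48 h in 10 mM differed from that in water, by limma's test of the difference with Benjamini-Hochberg adjustment. It was the higher in 10 mM for Acot1 (1.70), Fabp1 (1.96), Blvra (1.53), Sult1e1 (2.20), Ehhadh (1.04), Baat (1.32), Hao1 (1.33), Cyp4a1 (0.59), Bbox1 (0.95), Acadvl (0.86), Cyp7a1 (1.95), Acox2 (1.84), Cyp8b1 (1.36), Pck1 (1.01), Hal (1.73), Arg1 (0.85), Cyp2b3 (1.20), Nr1h3 (1.11), Hnf4a (1.21), C4bpb (1.29), Hamp (0.56), Slc30a10 (1.63), Cyp2e1 (1.12), Tsku (1.98), Car3 (1.98), Ptov1 (2.16), Fgf21 (0.70), Cyp3a2 (1.70) and Cyp2c13 (1.43). It was the lower for Cxcl1 (-1.17), Loricrin (-2.43), Steap4 (-0.78), Ccn2 (-1.24), Atf3 (-1.04), Plg (-0.58), Plat (-1.53), C9 (-0.86), Ccl2 (-1.70), Junb (-0.93), Egr1 (-0.81), Nr4a1 (-1.61), Zfp36 (-0.55), Slc5a3 (-1.87), Sugct (-1.45), Sox4 (-1.43) and Pdk4 (-0.59). 

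Against 0.5 mM, the same test found a higher change in 10 mM for Acot1 (1.83), Fabp1 (2.02), Sult1e1 (2.25), Crip1 (2.15), Tmem14a (2.11) and Car3 (2.25), and a lower one for Agps (-1.67), Ccn2 (-1.74), Slc5a3 (-1.68), Tatdn2 (-1.54), Lmcd1 (-1.49) and Spire1 (-1.46). The Ptov1 difference from water was not called when any 1 of 14 arrays was left out (1.64 to 2.24), nor the Agps difference from 0.5 mM when any 1 of 7 was (-1.61 to -1.38), nor that of Tmem14a without replicate 3 of 0.5 mM at 48 h or 5 of 10 mM at 24 h (1.86 to 1.89). Without the 3 arrays of high actin ratio, these differences were 1.99, -1.62 and 1.73 and not called. With the mean of its probesets, the Spire1 difference from 0.5 mM was -0.097 and not called (adjusted p = 0.816).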

How the results depend on the processing

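Of 177 gene changes in 10 mM, 144 kept their direction and their call in each of the 43 alternatives that tested the gene. Counts of called probesets moved more. For 48 h against 24 h in 10 mM, 1660 higher and 1273 lower became 2557 and 2133 with array weights, 1033 and 834 with the mean of a gene's probesets (fewer features were tested), and 117 and 75 with a fold minimum of 2. The lower count became 734 with centring on ribosomal protein genes and 2158 with only the groups compared. Leaving out 1 array at a time gave 1432 to 1784 higher and 1017 to 1419 lower.

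In water, the 853 higher became 282 with ribosomal centring, 487 with only the groups compared, 58 with the fold minimum and 559 to 1064 with 1 array left out, the lowest without replicate 3 at 48 h. The 835 lower in water became 547 with the actin covariate, 507 with probeset means, 53 with the fold minimum and 580 to 963 with 1 array left out. In 0.5 mM, 1842 higher and 1442 lower became 4085 and 392 with ribosomal centring, 611 and 425 with only the groups compared, 757 and 500 with the actin covariate, 631 and 447 without the 3 arrays of high actin ratio, 880 and 840 with probeset means, 100 and 130 with the fold minimum, and 1054 to 2554 and 697 to 2050 with 1 array left out. The fewest lower calls, 697 and 824, came without replicates 3 and 4 at 48 h.

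For the difference from the change in water, 1261 higher and 1024 lower became 667 higher with probeset means, 354 lower with ribosomal centring, 1614 lower with array weights, 181 and 149 with the fold minimum, and 1114 to 1396 and 859 to 1182 with 1 array left out. For the difference from 0.5 mM, 1126 and 1169 became 437 higher with ribosomal centring, 1733 and 1827 with array weights, 701 lower with probeset means, 162 and 127 with the fold minimum, and 903 to 1431 and 887 to 1575 with 1 array left out. Except where fewer features or arrays entered, the cause was not tested.

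Ribosomal centring moved the median of all tested probesets from -0.05 to 0.08 in the difference from water and from 0.03 to -0.11 in that from 0.5 mM. Under it the differences from water of Junb (-0.80) and Pdk4 (-0.46) were no longer called. With probeset means Cdkn1a (-0.068) and Plin2 (-0.21) changed sign. Runs of 6 arrays in the titles' running number hold 1 replicate of each group, and the labels do not say what else they share. The mean correlation between the deviations of arrays of 1 run lay between -0.0085 and 0.026. With the run as a block, 1680 probesets were called higher and 1271 lower in 10 mM. The number of arrays and the signal over background, not depth, limit these values.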
